A study of Mus musculus with 24 samples.

Results

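The control kidneys of 3 mouse lines were examined at embryonic day 18.5, shortly before birth. They were all libraries whose title carries the word control, 12 of the 24 libraries of the series. The series concerns Dmrt2, Hmx2 and Hmx3, transcription factors of the intercalated cells in the collecting duct, and its other 12 libraries are knockout kidneys. Whole kidneys were kept in RNAlater, RNA was purified with Qiagen RNeasy Mini columns, and polyA-selected libraries were sequenced with reads of 150 bp. The 3XKO controls (n = 3) are control littermates in the line with Dmrt2, Hmx2 and Hmx3 mutations, the Dmrt2 controls (n = 3) those in the Dmrt2 line, and the Hmx3 Hmx2 controls (n = 6) those in the line with Hmx2 and Hmx3 mutations. The labels give the line where a strain would stand, state only control as the genotype, and name no allele carried by any control. Column names of Hmx3 Hmx2 control replicates 1 to 3 say wild type, and those of the other controls do not. The libraries were deposited in 4 count tables, one for the 3XKO line, one for the Dmrt2 line, and a table each for replicates 4 to 6 and replicates 1 to 3 of the Hmx3 Hmx2 line. The labels do not say whether libraries of a group came from separate embryos, so the p-values below measure the spread between these libraries, which may be technical.

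The kidney at this stage is both a growing and a working organ. At its rim, nephron progenitors capping the branching ureteric tips still form new nephrons, under stromal cells that express Foxd1. Deeper in, older nephrons already have podocytes that filter blood, a proximal tubule that reclaims solutes, a thick ascending limb and distal convoluted tubule that reclaim salt, and a collecting system with water-handling principal cells and acid- or base-secreting intercalated cells. Control littermates of mutant lines are meant to show this normal kidney, and differences among controls give the measure against which a mutant's change is read.

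Totals of counted reads were 108185205 to 110421376 in 3XKO controls, 71103531 to 77909704 in Dmrt2 controls, 55626702 to 60979119 in Hmx3 Hmx2 control replicates 4 to 6 and 64271468 to 91451356 in replicates 1 to 3. If reads were independent, a zero count allowed a level of at most 0.0272 to 0.0539 CPM (counts scaled to a library total of 1000000, 3 reads). That covers counting error only. Most reads were counted in pairs, since 88.7 to 94.1% of counts from 1 to 19 were even, so the true limit is higher. The 10 mitochondrial genes listed took 1.09 to 2.54% of counts. Reads with several positions were not counted, so this is not the share of all mitochondrial RNA. No pair of libraries of a table agreed within counting error. Xist, the RNA of the inactive X chromosome, reached 274 TPM in 3XKO control 1, 144 TPM in Hmx3 Hmx2 control 5 and 144 TPM in Hmx3 Hmx2 control 2, and at most 0.0631 TPM in the other 9 libraries. TPM are here reads per kilobase of a gene's exonic bases, scaled to a sum of 1000000 in each library.

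14993 of 54393 genes had at least 1 TPM in all 12 controls, 9886 had at least 10 TPM, 1531 at least 100 TPM and 75 at least 1000 TPM. No read was counted in any control for 19399 genes. The RNA was led by genes of respiration and protein synthesis. The mitochondrial mt-Cytb, part of respiratory complex III, averaged 24010.0 TPM (range 16337 to 33368), the translation elongation factor Eef1a1 11616 TPM (range 8977 to 12888), and the ribosomal protein gene Rplp1 7247 TPM (range 4426 to 10771). Among the 20 genes with the highest mean level were also Actb, the cytoskeletal actin, at 4529.5 TPM, the imprinted fetal RNA H19 at 3675 TPM, and the alpha globin gene Hba-a1 at 2497 TPM. Hba-a1 is a gene of red cells. As shares of all TPM, ribosomal protein genes took 8.92 to 11.4%, the 10 mitochondrial genes listed 3.15 to 7.8%, collagen genes 0.63 to 0.79% and haemoglobin genes 0.391 to 0.863%.

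Levels of marker genes, given as mean ± SD over the 12 controls (n = 12 in each case), followed the parts of the kidney. Genes of the niche that forms new nephrons were detected throughout. Six2, the factor that keeps nephron progenitors undifferentiated, stood at 172 ± 30.3 TPM, the homeobox gene Uncx at 149 ± 38.3 TPM, Cited1, a mark of the least committed progenitors, at 79.3 ± 20.9 TPM, and Osr1, a factor of the earliest kidney precursors, at 31.9 ± 12.8 TPM. In the early nephron list, Wnt4, the signal that turns progenitors into epithelium, was at 113 ± 15.6 TPM, the Notch ligand Jag1 at 98.4 ± 7.82 TPM, the nephron lineage factor Pax8 at 93.2 ± 10.5 TPM and Lhx1, needed to pattern the new vesicle, at 84.8 ± 8.87 TPM. Among ureteric tip genes, the transcription factors Etv5 and Etv4 were at 73.3 ± 9.47 and 61.9 ± 8.47 TPM, and Ret, the receptor that branching depends on, at 21.4 ± 2.87 TPM. Pax2, which both progenitors and ureteric epithelium express, led the ureteric epithelium list at 230.0 ± 36.3 TPM, followed by Emx2 at 147 ± 22.5 TPM.

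Podocyte genes were among the higher markers. Cdkn1c, a cell cycle inhibitor that marks podocytes but is also expressed in stroma, was at 720.4 ± 132 TPM, Podxl, the sialomucin that coats podocyte foot processes, at 452 ± 45.8 TPM and Nphs1 (nephrin), a slit diaphragm protein, at 36.3 ± 2.42 TPM. Genes of the proximal tubule also had high levels. Slc34a1, the phosphate transporter of its brush border, was at 933 ± 104 TPM, the gluconeogenic enzyme Fbp1 at 710.4 ± 110.2 TPM and the organic anion transporter Slc22a6 at 389.7 ± 57.9 TPM. Of the endocytic receptor genes, Amn was at 239.7 ± 16.3 TPM and Lrp2 (megalin) at 194 ± 30.00 TPM. Some transporters of the adult tubule were low. The neutral amino acid transporter Slc6a19 was at 6.04 ± 1.302 TPM and the sulphate transporter Slc13a1 at 4.64 ± 1.02 TPM.

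In the thick ascending limb, Slc12a1, the furosemide-sensitive salt carrier, was at 329.9 ± 38.9 TPM and uromodulin (Umod) at 111 ± 15.2 TPM. Egf, an abundant product of this limb and the distal tubule in adult mice, was at only 2.01 ± 0.268 TPM. The macula densa genes Nos1 and Ptgs2 were at 4.73 ± 0.5302 and 4.48 ± 0.908 TPM. In the distal convoluted tubule list, the membrane protein gene Tmem52b was at 171 ± 32.2 TPM, the kinase Wnk4, a regulator of salt transport, at 111 ± 12.9 TPM, and the thiazide-sensitive carrier Slc12a3 at 62.3 ± 12.3 TPM. Pvalb, which marks the early part of that tubule in adults, was low at 0.495 ± 0.501 TPM. In the connecting tubule, the calcium-binding protein gene S100g reached 1329 ± 269 TPM, above the kallikrein Klk1 at 114 ± 45.4 TPM, the calcium-binding Calb1 at 97.3 ± 25.3 TPM and the calcium channels Trpv5 and Trpv6 at 16.1 ± 5.33 and 8.73 ± 1.12 TPM.

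The collecting system showed a similar gradient between genes. The vasopressin-regulated water channel Aqp2 was at 769 ± 233 TPM, against 169.9 ± 13.2 TPM for Aqp3 and 19.7 ± 4.51 TPM for Aqp4, the channels of the opposite membrane. The sodium channel subunits Scnn1b and Scnn1g were at 147 ± 9.42 and 85.7 ± 10.7 TPM. Of the genes shared by intercalated cells, the carbonic anhydrase Car2 was at 221 ± 29.4 TPM, the transcription factor Tfcp2l1 at 163 ± 30.1 TPM, the ammonia channel Rhcg at 146 ± 21.2 TPM, the proton pump subunit Atp6v1b1 at 77.2 ± 5.100 TPM and Foxi1, the factor that specifies these cells, at 56.7 ± 7.12 TPM. Genes of single intercalated types had lower levels. On the type A list Adgrf5, an adhesion receptor that endothelium also expresses, was at 58.6 ± 5.82 TPM, the receptor tyrosine kinase Kit at 21.3 ± 1.24 TPM, the vesicular channel Aqp6 at 20.8 ± 5.84 TPM and Slc4a1, the anion exchanger shared with red cells, at 13.2 ± 1.297 TPM. On the type B and non-A non-B list Spink8 was at 39.6 ± 7.12 TPM and Slc4a9, a transporter of type B cells, at 25.8 ± 1.96 TPM, against 4.69 ± 1.03 TPM for pendrin (Slc26a4), their apical anion exchanger.

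Between the tubules, the collagen gene Col1a1 was at 1134 ± 191 TPM, the stromal factor Tcf21 at 275 ± 30.4 TPM, and in the nephrogenic stroma list Ntn1, a netrin, was at 77.8 ± 10.9 TPM and Foxd1, the factor that defines that stroma, at 23.7 ± 6.22 TPM. The uroplakin genes Upk3a and Upk1a of the urothelium were at 68.6 ± 13.7 and 47.4 ± 10.6 TPM. Smooth muscle actin (Acta2) was at 789.9 ± 102 TPM, and the endothelial genes Plvap and Cdh5 at 459 ± 52.3 and 237 ± 10.4 TPM. Ren1, renin, was among the highest of all cell type markers at 1155 ± 331 TPM, with a range of 569.7 to 1709 TPM (median 1074) in which the 4 tables overlapped. The macrophage complement genes C1qb and C1qa were at 49.6 ± 6.92 and 39.4 ± 7.699 TPM. A gene's level depends on which reads were counted, and reads in bases shared by several genes were not. Of 284 list members, 214 shared no exonic base with another gene and 4 shared over 50%, namely Avpr2 (81.3%), Tagln (67.9%), Igf2 (64.5%) and Rhbg (61.4%). The levels of Avpr2, the vasopressin receptor (0.1295 ± 0.0635 TPM), Tagln, a smooth muscle gene (2.19 ± 0.563 TPM), the fetal growth factor gene Igf2 (115 ± 18.2 TPM) and the ammonia channel gene Rhbg (7.37 ± 1.82 TPM) are therefore uncertain.

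**Figure D1:**
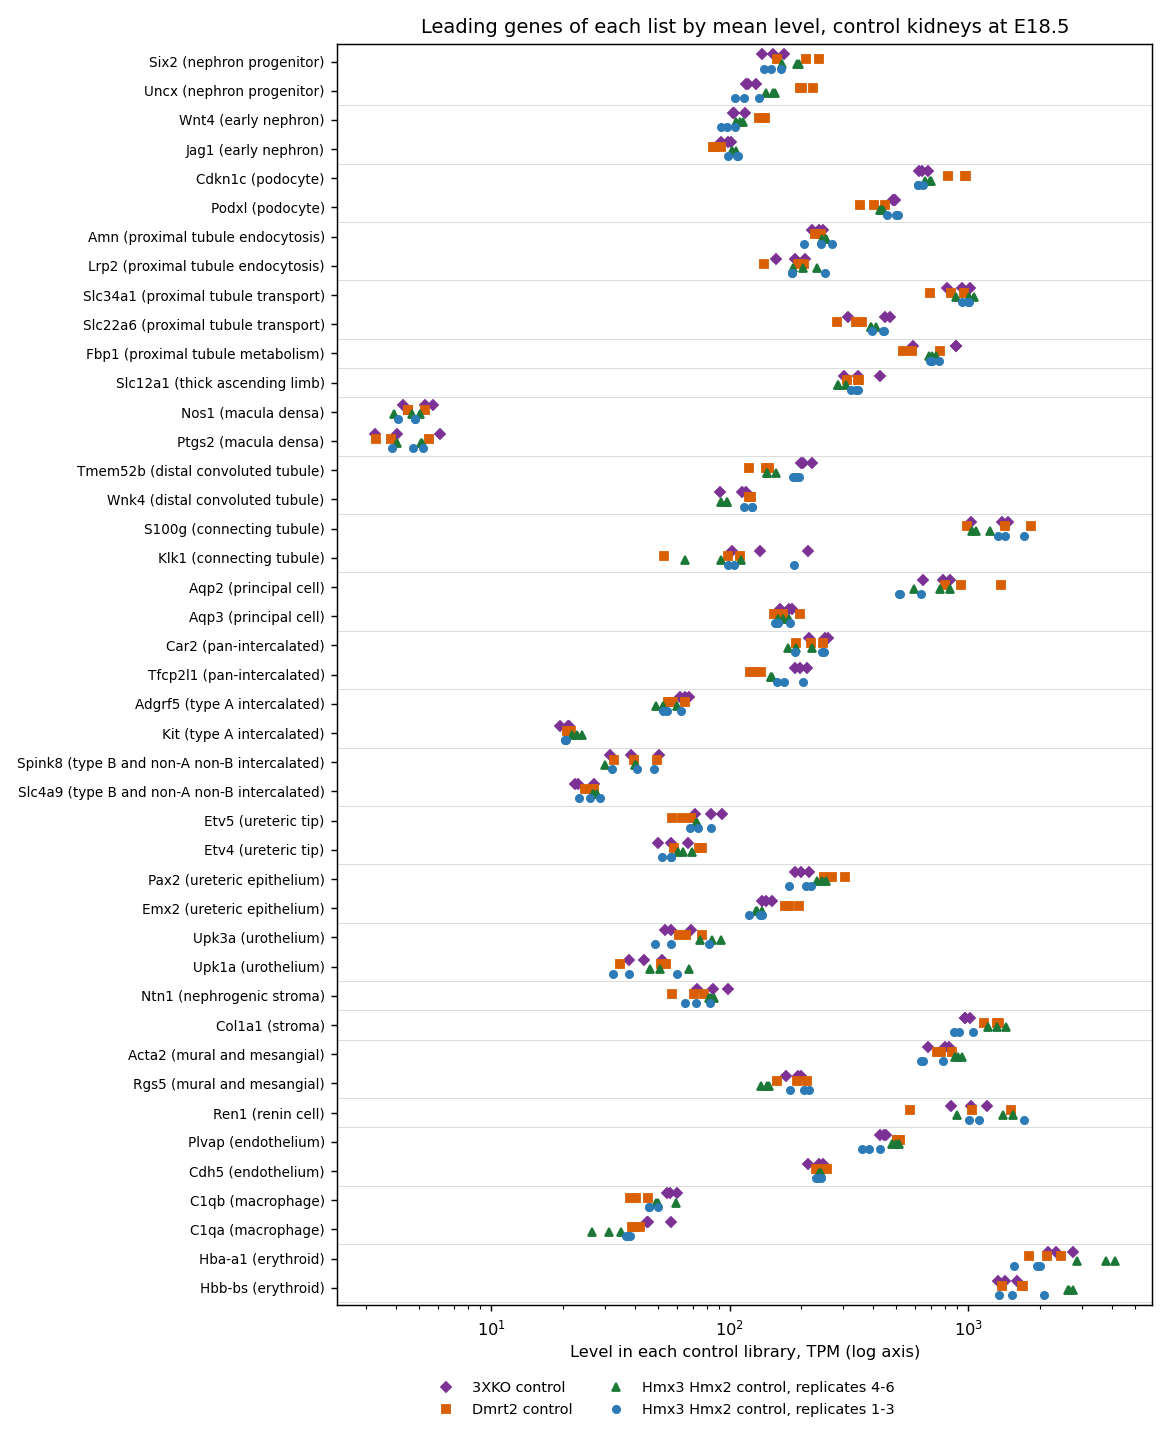
Level in TPM (log axis) of genes named in the text that are among the 2 with the highest mean in their cell type list, with 1 symbol per control library. Diamonds are 3XKO controls, squares Dmrt2 controls, triangles Hmx3 Hmx2 control replicates 4 to 6 and circles replicates 1 to 3. The globin genes Hba-a1 and Hbb-bs, S100g, Ren1 and Col1a1 lie furthest to the right and the macula densa genes Nos1 and Ptgs2 furthest to the left. The squares lie right of all other symbols for Uncx, Wnt4, Cdkn1c and Emx2, and the triangles do so for the globin genes.

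Most markers of tissues outside the kidney were low. The liver gene Afp and the adipose list gene Fabp4 were high in every control, and Alb stood out in single libraries. The adrenal steroid enzymes Cyp11a1, Cyp11b1 and Cyp17a1 averaged 0.289, 0.0226 and 0.0751 TPM, and Star, which carries cholesterol into mitochondria, 4.401 TPM. Of the 5 skeletal muscle genes, 3 had a mean of at least 1 TPM, and the list summed to 13.3 to 19.6 TPM. Tnnt3 and Mylpf averaged 6.44 and 5.31 TPM, and Ckm and Myh3 0.288 and 0.3598 TPM. The T cell gene Cd3e averaged 0.0249 TPM. The adipocyte genes Adipoq and Plin1 stayed at most at 0.287 and 0.117 TPM, whereas the fatty acid binding protein Fabp4, which capillaries also express, was at 193 ± 17.7 TPM. Of the liver genes, Afp, alpha-fetoprotein, was at 64.4 to 178 TPM (median 111). Alb, albumin, was at 6.04, 3.13 and 9.31 TPM in 3XKO controls, 1.902, 3.78 and 0.722 TPM in Dmrt2 controls, 0.888, 0.857 and 7.86 TPM in Hmx3 Hmx2 controls 4 to 6 and 35.7, 52.1 and 4.13 TPM in Hmx3 Hmx2 controls 1 to 3. Only Hmx3 Hmx2 controls 1 and 2 exceeded 10 TPM of Alb. Fgb, a fibrinogen chain made mainly by liver, was 4.902, 3.84 and 5.66 TPM in 3XKO controls, 1.63, 1.07 and 1.62 TPM in Dmrt2 controls, 3.75, 3.33 and 4.05 TPM in Hmx3 Hmx2 controls 4 to 6 and 5.44, 6.49 and 3.63 TPM in Hmx3 Hmx2 controls 1 to 3, and within the Hmx3 Hmx2 line controls 1 and 2 were again the highest. The 5 liver genes summed to 89.3 to 149.9 TPM in 3XKO controls, 112 to 163 TPM in Dmrt2 controls, 122 to 152 TPM in Hmx3 Hmx2 controls 4 to 6 and 137 to 272 TPM in Hmx3 Hmx2 controls 1 to 3.

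The spread of each gene was measured as the SD of log2(TPM + 0.1) over the 12 controls. Over 12660 genes with a mean of at least 5 TPM, the median SD was 0.15, with a median pooled SD of 0.0892 within tables and 0.139 between the 4 table means. The 235 list members at that level had medians of 0.21, 0.146 and 0.174. An SD above 0.5 was found for 471 of the 12660 genes and for 22 of the 235 list members. The steadiest list members were the stromal ligand Wnt5a (SD 0.0587), at 37.04 to 43.6 TPM (median 41.2), the glucocorticoid-induced Tsc22d3 (SD 0.0615), the endothelial cadherin Cdh5 (SD 0.0646), the podocyte and progenitor factor Wt1 (SD 0.0734) and the clock repressor Cry1 (SD 0.0762). The most variable were Xist, the Y-linked genes Ddx3y, Eif2s3y and Kdm5d, and Ifi202b, an interferon-inducible gene known to differ between inbred mouse strains. Ifi202b was at 18.3, 13.7 and 10.6 TPM in 3XKO controls, 0.0571, 7.11 and 2.52 TPM in Dmrt2 controls, 0, 0 and 0 TPM in Hmx3 Hmx2 controls 4 to 6 and 8.91, 3.22 and 3.05 TPM in Hmx3 Hmx2 controls 1 to 3. It was listed at 0 in all libraries of 1 table, and its level in Dmrt2 control 1 was that of 2 reads, within what a zero count allows.

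Libraries of a table were the most alike, though the ranges for table and line overlapped. Across 12660 genes, which are not independent replicates, Pearson's r of log2(TPM + 0.1) between libraries was 0.973 to 0.990 for the 12 pairs of the same table, 0.964 to 0.977 for the 9 pairs of the Hmx3 Hmx2 line in different tables, and 0.946 to 0.972 for the 45 pairs of different lines. The first principal component (29.7% of variance) separated the Dmrt2 controls, with scores of −33.03 to −27.99, from all other controls, with scores of 5.08 to 14.97. The second (18.6%) separated replicates 4 to 6 of the Hmx3 Hmx2 line (−23.77 to −20.67) from replicates 1 to 3 (0.79 to 10.98), which are controls of the same line. On the third (11.6%), 3XKO controls scored 9.94 to 16.58 and Hmx3 Hmx2 controls 1 to 3 scored −19.36 to −13.47. The fourth (9.45%) spread libraries within every table.

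**Figure D2:**
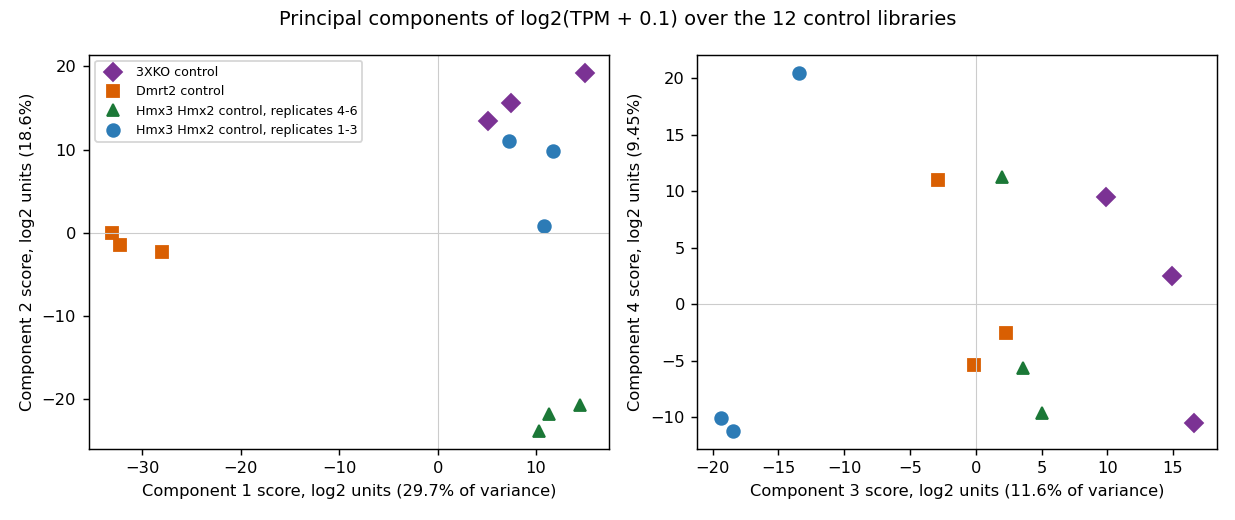
Scores of the 12 control libraries on principal components 1 and 2 (left) and 3 and 4 (right) of log2(TPM + 0.1), with the share of variance on each axis; symbols mark the 4 tables. The Dmrt2 controls stand alone at the left of component 1, at −33.03 to −27.99, and the triangles of Hmx3 Hmx2 control replicates 4 to 6 stand alone at the bottom of component 2.

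Each line other than Hmx3 Hmx2 is in 1 table, so for the 3XKO and the Dmrt2 line the line and the table cannot be told apart. Several measures of the libraries moved with the table. Besides the totals of counted reads, the share of TPM from the 10 mitochondrial genes listed averaged 5.3% in 3XKO controls, 6.54% in Dmrt2 controls, 3.23% in Hmx3 Hmx2 controls 4 to 6 and 4.83% in replicates 1 to 3. Ribosomal protein genes took 9.2% in 3XKO controls, 9.6% in Dmrt2 controls, 11.1% in Hmx3 Hmx2 controls 4 to 6 and 10.3% in Hmx3 Hmx2 controls 1 to 3. Haemoglobin genes took 0.459% in 3XKO controls, 0.518% in Dmrt2 controls, 0.823% in Hmx3 Hmx2 controls 4 to 6 and 0.457% in Hmx3 Hmx2 controls 1 to 3. The mitochondrial gene mt-Nd6, a complex I subunit on the other strand of the mitochondrial genome, was 9468, 9639 and 9389.6 TPM in 3XKO controls, 20806, 16599 and 14283 TPM in Dmrt2 controls, 3972, 3752 and 3556 TPM in Hmx3 Hmx2 controls 4 to 6 and 7939, 5878 and 6163 TPM in Hmx3 Hmx2 controls 1 to 3, so the 4 tables did not overlap. The counting did not use strand, so reads of both strands at this place are included. Gene length moved with the differences too. Of called genes over 1000 and up to 3000 exonic bases, 1242 were higher and 572 lower in Dmrt2 controls than in Hmx3 Hmx2 controls, whereas of longer called genes 1629 were higher and 2669 lower. The part of these measures in the differences below was not tested.

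The 4 tables were set against each other in 1 edgeR fit of the 12 controls over 21035 genes, and called genes had an adjusted p under 0.05 in the quasi-likelihood test with Benjamini-Hochberg adjustment. The Hmx3 Hmx2 line was represented by the mean of its 2 tables, and the 3 line comparisons share libraries, so they are not independent of each other. Dmrt2 controls differed from Hmx3 Hmx2 controls at 6630 genes (31.5%), 3263 higher and 3367 lower. The 3XKO controls differed from Hmx3 Hmx2 controls at 3671 genes (17.5%), 1969 higher and 1702 lower, and from Dmrt2 controls at 5940 genes (28.2%), 3058 higher and 2882 lower. Within the Hmx3 Hmx2 line, replicates 4 to 6 differed from replicates 1 to 3 at 2664 genes (12.7%), 1240 higher and 1424 lower. Most differences were small, with a median absolute log2 fold change among called genes of 0.32 in Dmrt2 against Hmx3 Hmx2, 0.27 in 3XKO against Hmx3 Hmx2, 0.36 in 3XKO against Dmrt2 and 0.29 in Hmx3 Hmx2 controls 4 to 6 against 1 to 3. Called and changed at least 2-fold were 641 genes (3.05%) in Dmrt2 against Hmx3 Hmx2, 382 genes (1.82%) in 3XKO against Hmx3 Hmx2, 773 genes (3.67%) in 3XKO against Dmrt2 and 221 genes (1.05%) in Hmx3 Hmx2 controls 4 to 6 against 1 to 3. A difference anywhere among the 4 tables was called at 9451 genes (44.9%). Leaving out 1 library moved some of these counts by over 1.5 times. The 3XKO against Hmx3 Hmx2 count was 2267 without 3XKO control 1 and 2374 without 3XKO control 3, and the count between replicates 4 to 6 and 1 to 3 was 1587, 1536, 1350 and 1477 without Hmx3 Hmx2 control 1, 4, 5 and 6.

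The lists of cell type, tissue and process genes hold 268 members when the sex, strain and targeted lists are set aside, of which 259 were tested. Of these, 90 (34.7%) differed in Dmrt2 controls from Hmx3 Hmx2 controls, 49 higher and 41 lower, against 31.5% of all genes (15.5% higher and 16% lower). In 3XKO controls 33 (12.7%) differed from Hmx3 Hmx2 controls, 19 higher and 14 lower, against 17.5% of all genes (9.36% higher and 8.09% lower), and 72 (27.8%) differed from Dmrt2 controls, 34 higher and 38 lower, against 28.2% (14.5% higher and 13.7% lower). Between Hmx3 Hmx2 controls 4 to 6 and 1 to 3, 34 (13.1%) differed, 22 higher and 12 lower, against 12.7% (5.89% higher and 6.77% lower). The share of list members called was below that of all genes in 3XKO against Hmx3 Hmx2 controls and near it in the other comparisons. Of these members, 49 in Dmrt2 against Hmx3 Hmx2, 13 in 3XKO against Hmx3 Hmx2, 44 in 3XKO against Dmrt2 and 15 in Hmx3 Hmx2 controls 4 to 6 against 1 to 3 were called in every fit that left out 1 library of the comparison. Genes named below as different are of that kind unless a value says otherwise. Counts for single lists below are to be read beside the shares of all genes just given. In bulk RNA, fewer cells of a type and less RNA per cell cannot be told apart.

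**Figure D3:**
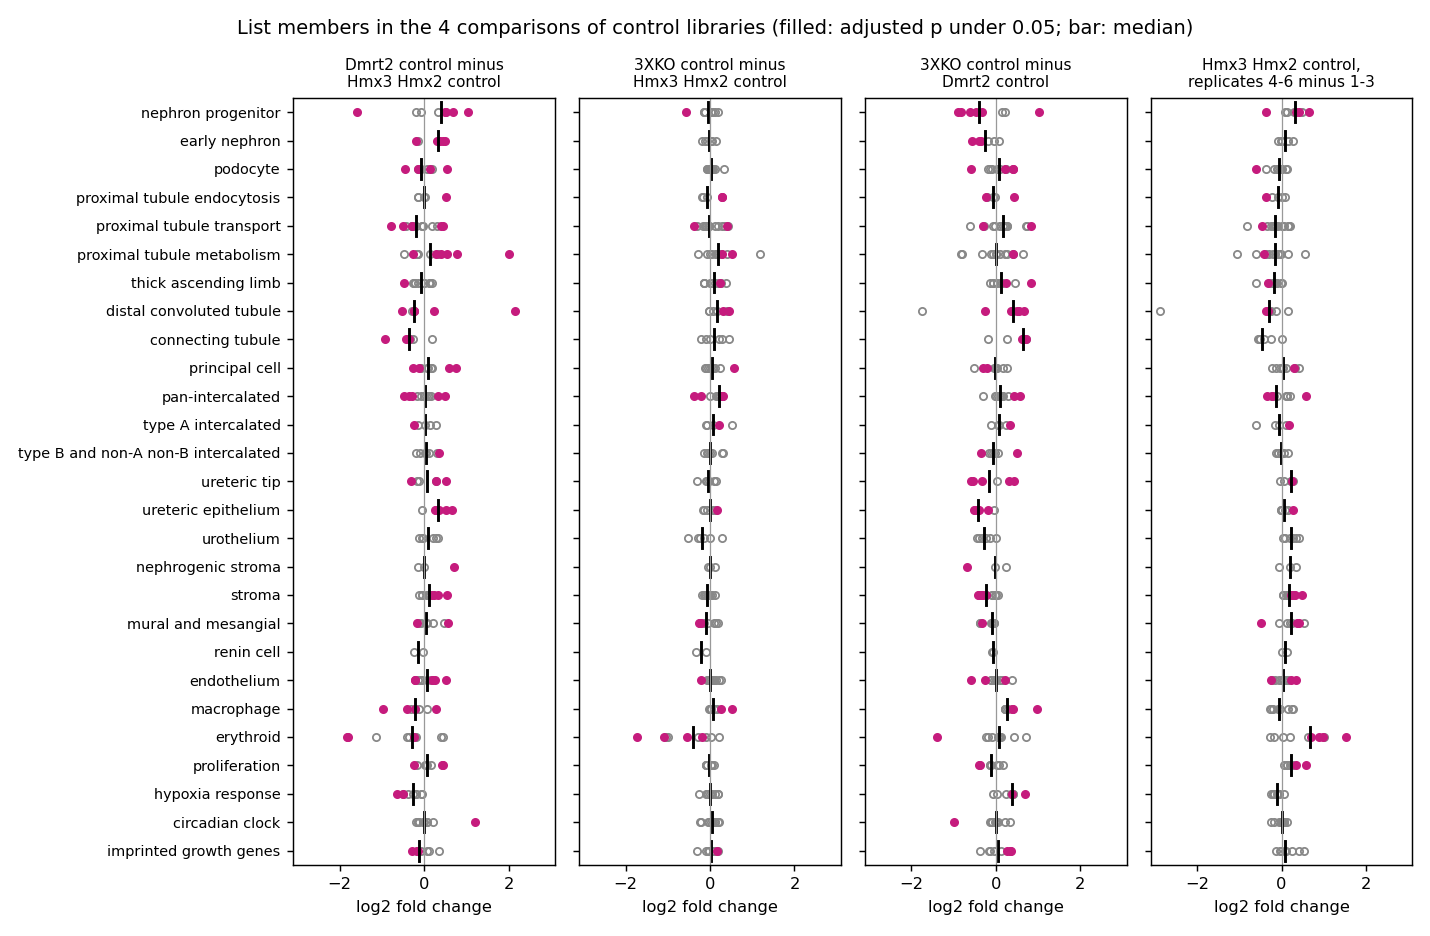
Log2 fold change of every tested member of the plotted lists in the 4 comparisons of control libraries, with the group named first over the group after minus. Filled points passed an adjusted p of 0.05, open points did not, and bars are list medians. In the first panel the nephron progenitor, early nephron and ureteric epithelium bars lie right of 0 and the connecting tubule bar left of 0. In the fourth panel the erythroid bar lies furthest right, the nephron progenitor bar also right of 0 and the connecting tubule bar left of 0.

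Nephron progenitor genes differed most between the lines at Uncx, Osr1 and Crym. In Dmrt2 controls against Hmx3 Hmx2 controls, 4 of 8 were higher and 1 lower (4 of the 5 called in every fit without 1 library), with a list median log2 fold change of 0.41, and the median over all genes was −0.01. Of all genes, 15.5% were higher and 16% lower in that comparison. Within the Hmx3 Hmx2 line, 3 of the 8 were higher and 1 lower in controls 4 to 6 than in 1 to 3, with a list median of 0.32. Of these 4 calls, 2 were kept in every fit without 1 library. The shares over all genes there were 5.89% higher and 6.77% lower. Uncx was 119.8, 117 and 129 TPM in 3XKO controls, 197, 223 and 201 TPM in Dmrt2 controls and 106 to 154 TPM (median 138) in Hmx3 Hmx2 controls. All 3 Dmrt2 controls were above every other control. The difference was a log2 fold change of 0.69 ± 0.06 SE, adjusted p = 9.2e-07 against Hmx3 Hmx2 controls, and 3XKO against Dmrt2 controls it was −0.82. Uncx also differed within the Hmx3 Hmx2 line, where controls 4 to 6 had 143, 154 and 152 TPM and controls 1 to 3 had 106, 133 and 115 TPM (log2 fold change of 0.35 ± 0.07 SE, adjusted p = 0.0056).

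Osr1 was 23.6, 28.5 and 30.8 TPM in 3XKO controls, 33.6, 62.01 and 52.4 TPM in Dmrt2 controls and 20.2 to 31.3 TPM (median 24.7) in Hmx3 Hmx2 controls, again with every Dmrt2 control above all others, although Dmrt2 control 1 stood well below the other two. The log2 fold change of Dmrt2 over Hmx3 Hmx2 controls was 1.03 ± 0.16 SE (adjusted p = 0.00075). Crym, a thyroid hormone binding protein whose gene is on the progenitor list, went the other way. It was 17.2, 20.1 and 17.3 TPM in 3XKO controls, 6.62, 9.83 and 9.39 TPM in Dmrt2 controls, 30.2, 31.1 and 31.8 TPM in Hmx3 Hmx2 controls 4 to 6 and 23.8, 25.5 and 20.3 TPM in Hmx3 Hmx2 controls 1 to 3. The Dmrt2 controls were below every other control. Dmrt2 over Hmx3 Hmx2 controls gave a log2 fold change of −1.59 ± 0.12 SE, adjusted p = 9.3e-07, and 3XKO over Dmrt2 controls a log2 fold change of 1.02 ± 0.13 SE, adjusted p = 0.00011. The homeobox gene Meox1 was higher in Dmrt2 than in Hmx3 Hmx2 controls (log2 fold change of 0.52 ± 0.10 SE, adjusted p = 0.001), at 32.6, 33.1 and 31.9 TPM in Dmrt2 controls and 19.9 to 29.4 TPM (median 23.1) in Hmx3 Hmx2 controls. For Six2 the Dmrt2 controls had 157, 238 and 208 TPM and the Hmx3 Hmx2 controls 139 to 196 TPM (median 165), which overlapped (log2 fold change of 0.32 ± 0.12 SE, adjusted p = 0.078).

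Genes of the newly formed nephron were mostly higher in Dmrt2 controls too. Of 6 early nephron genes, 4 were higher and 1 lower in Dmrt2 controls than in Hmx3 Hmx2 controls. All 5 were called in every fit without 1 library, and over all genes 15.5% were higher and 16% lower. The list median was 0.33 there, −0.02 in 3XKO over Hmx3 Hmx2 controls, −0.26 in 3XKO over Dmrt2 controls and 0.08 in Hmx3 Hmx2 controls 4 to 6 over 1 to 3. Wnt4 was 104, 116 and 105 TPM in 3XKO controls, 138, 141 and 132 TPM in Dmrt2 controls and 91.9 to 114 TPM (median 106) in Hmx3 Hmx2 controls. The Dmrt2 controls were above all others. The difference from Hmx3 Hmx2 controls was a log2 fold change of 0.44 ± 0.05 SE, adjusted p = 9.4e-06. Fgf8, a survival signal of the new nephron, showed a log2 fold change of 0.50 ± 0.10 SE, adjusted p = 0.0014, and Pax8, a nephron lineage factor, a log2 fold change of 0.36 ± 0.05 SE, adjusted p = 3.7e-05. The Notch ligand gene Jag1 was lower, with a log2 fold change of −0.20 ± 0.04 SE (adjusted p = 0.0027). The proliferation list gave 2 higher and 1 lower of 8 in the same comparison, and its member Birc5, an inhibitor of apoptosis made in mitosis, was at 71.6, 74.3 and 66.6 TPM in Dmrt2 controls and 47.6 to 64.7 TPM (median 52.5) in Hmx3 Hmx2 controls (log2 fold change of 0.45 ± 0.07 SE, adjusted p = 0.00011).

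Most ureteric epithelium genes were also higher in Dmrt2 controls, whereas the ureteric tip genes were divided. In Dmrt2 against Hmx3 Hmx2 controls, 5 of 6 ureteric epithelium genes were higher and 0 lower (list median 0.32), and of the 6 ureteric tip genes 2 were higher and 1 lower (list median 0.07). Of these calls, 4 in ureteric epithelium and 1 in the tip were kept in every fit without 1 library. The shares over all genes were 15.5% higher and 16% lower. Hoxb7, a homeobox gene of the whole ureteric tree, was 124, 121 and 127 TPM in 3XKO controls, 174, 167 and 160.0 TPM in Dmrt2 controls and 107 to 117 TPM (median 108) in Hmx3 Hmx2 controls. No Dmrt2 control overlapped with any other control. The Dmrt2 over Hmx3 Hmx2 difference was a log2 fold change of 0.65 ± 0.04 SE, adjusted p = 3.3e-08. Emx2, needed for ureteric branching, was 195, 178 and 171 TPM in Dmrt2 controls and 121 to 137 TPM (median 132) in Hmx3 Hmx2 controls (log2 fold change of 0.51 ± 0.05 SE, adjusted p = 1.6e-06), and Gata3 differed less (log2 fold change of 0.26 ± 0.05 SE, adjusted p = 0.00061). Wnt11, a signal of the ureteric tip, was 76.02, 71.9 and 73.4 TPM in Dmrt2 controls and 47.2 to 58.8 TPM (median 55.2) in Hmx3 Hmx2 controls (log2 fold change of 0.51 ± 0.06 SE, adjusted p = 1e-05). Gfra1, the co-receptor of Ret, went the other way, at 45.4, 53.3 and 49.8 TPM in Dmrt2 controls and 58.8 to 67.5 TPM (median 64.1) in Hmx3 Hmx2 controls (log2 fold change of −0.32 ± 0.08 SE, adjusted p = 0.0068). Without Dmrt2 control 1 that call was lost (adjusted p = 0.061). Foxd1 in the nephrogenic stroma was 16.6, 20.9 and 25.2 TPM in 3XKO controls, 30.1, 37.1 and 29.6 TPM in Dmrt2 controls and 16.8 to 26.2 TPM (median 20.6) in Hmx3 Hmx2 controls, with all Dmrt2 controls above the rest (log2 fold change of 0.69 ± 0.13 SE, adjusted p = 0.002).

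The podocyte list was split. In Dmrt2 against Hmx3 Hmx2 controls 2 of 10 were higher and 2 lower, beside 15.5% higher and 16% lower over all genes. Cdkn1c was 619.9, 643 and 677 TPM in 3XKO controls, 971, 978 and 826 TPM in Dmrt2 controls and 617 to 695 TPM (median 653) in Hmx3 Hmx2 controls, with the Dmrt2 controls above all others (log2 fold change of 0.55 ± 0.05 SE, adjusted p = 1.9e-06). Ptpro, a phosphatase of the foot process, was 40.1, 27.7 and 32.8 TPM in Dmrt2 controls and 39.9 to 53.00 TPM (median 48.7) in Hmx3 Hmx2 controls (log2 fold change of −0.46 ± 0.11 SE, adjusted p = 0.0078). Dmrt2 control 1 reached the lowest Hmx3 Hmx2 controls. Wt1 and Podxl had log2 fold changes of 0.14 and −0.15, and neither call was kept in every fit without 1 library (highest adjusted p = 0.12 and 0.31).

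Few of the proximal tubule differences were called in every fit. Across the endocytosis, transport and metabolism lists together, 12 of 33 tested genes were called in Dmrt2 against Hmx3 Hmx2 controls and 3 of them in every fit without 1 library. The share of all genes called there was 31.5%, near that of these lists. Dab2, an adaptor for the endocytic receptors, was 159.7, 165 and 167 TPM in 3XKO controls, 209, 167 and 177 TPM in Dmrt2 controls, 121, 110.4 and 118 TPM in Hmx3 Hmx2 controls 4 to 6 and 142, 154 and 159 TPM in Hmx3 Hmx2 controls 1 to 3. All 3 Dmrt2 controls were above all Hmx3 Hmx2 controls, and controls 4 to 6 were below controls 1 to 3. Dmrt2 over Hmx3 Hmx2 gave a log2 fold change of 0.51 ± 0.06 SE, adjusted p = 6.6e-06, and replicates 4 to 6 over 1 to 3 a log2 fold change of −0.37 ± 0.07 SE, adjusted p = 0.0022. The bicarbonate transporter Slc4a4 was 77.6, 73.6 and 71.2 TPM in 3XKO controls and 44.4, 29.6 and 45.5 TPM in Dmrt2 controls (log2 fold change of 0.84 ± 0.15 SE, adjusted p = 0.0028), and Hnf4a, the factor that drives proximal tubule maturation, 275, 286 and 274 TPM in 3XKO controls and 224, 178 and 200.1 TPM in Dmrt2 controls (log2 fold change of 0.41 ± 0.07 SE, adjusted p = 0.00061). Neither gene overlapped between these 2 lines. The urate transporter Slc22a12 was 95.8, 88.9 and 87.8 TPM in 3XKO controls and 108 to 130.1 TPM (median 117) in Hmx3 Hmx2 controls (log2 fold change of −0.37 ± 0.06 SE, adjusted p = 0.00073).

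Some proximal tubule genes varied widely among controls. Kap, an androgen-induced protein of the proximal tubule, was 983, 295 and 155 TPM in 3XKO controls, 649, 859.7 and 937 TPM in Dmrt2 controls, 177, 85.3 and 169 TPM in Hmx3 Hmx2 controls 4 to 6 and 312, 294 and 297 TPM in Hmx3 Hmx2 controls 1 to 3. The Dmrt2 controls were above all Hmx3 Hmx2 controls, but 3XKO control 1 was above the Dmrt2 controls. The Dmrt2 over Hmx3 Hmx2 call (log2 fold change of 2.02 ± 0.51 SE, adjusted p = 0.017) ended without Dmrt2 control 2 or 3, with a highest adjusted p of 0.054, and against Hmx3 Hmx2 controls 1 to 3 alone its adjusted p was 0.12. Cyp27b1, the enzyme that activates vitamin D, was 60.5 to 274 TPM (median 172) over all controls, and it varied as much within tables, at 272, 274 and 78.5 TPM in 3XKO controls and 60.5, 123 and 199 TPM in Dmrt2 controls. No comparison called it. Miox, an inositol-catabolising enzyme of this segment, was 148, 101 and 130.4 TPM in 3XKO controls, 283, 168 and 179 TPM in Dmrt2 controls and 81.5 to 185 TPM (median 127) in Hmx3 Hmx2 controls.

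In the connecting tubule, the called genes were lower in Dmrt2 controls. Of 6 connecting tubule genes, 3 were lower and 0 higher in Dmrt2 than in Hmx3 Hmx2 controls (list median −0.35), all 3 in every fit without 1 library. Of all genes, 16% were lower and 15.5% higher. Within the Hmx3 Hmx2 line the list median of controls 4 to 6 over 1 to 3 was −0.46, with 0 of the 6 genes called. Trpv5, the calcium channel of the apical membrane, was 19.7, 18.2 and 11.3 TPM in 3XKO controls, 8.97, 7.78 and 12.1 TPM in Dmrt2 controls, 13.99, 15.98 and 17.5 TPM in Hmx3 Hmx2 controls 4 to 6 and 22.4, 22.95 and 22.6 TPM in Hmx3 Hmx2 controls 1 to 3. The Dmrt2 controls were below all Hmx3 Hmx2 controls, while 3XKO control 3 lay within the Dmrt2 range. The Dmrt2 over Hmx3 Hmx2 difference was a log2 fold change of −0.93 ± 0.19 SE, adjusted p = 0.0034. Slc8a1, the exchanger that moves calcium out on the basolateral side, was 32.5, 30.3 and 29.5 TPM in 3XKO controls, 17.2, 17.4 and 21.6 TPM in Dmrt2 controls and 22.3 to 31.1 TPM (median 25.8) in Hmx3 Hmx2 controls, lowest in the Dmrt2 controls without overlap (log2 fold change of −0.43 ± 0.08 SE, adjusted p = 0.00072). Trpv6, the related calcium channel, showed a log2 fold change of −0.36 ± 0.09 SE, adjusted p = 0.0049.

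Of the distal convoluted tubule genes, 4 of 7 were higher and 1 lower in 3XKO than in Dmrt2 controls (list median 0.40), 2 of them in every fit without 1 library. The shares over all genes were 14.5% higher and 13.7% lower. Klhl3, which targets the WNK kinases for degradation, was 31.4, 26.1 and 24.5 TPM in 3XKO controls, 16.9, 15.6 and 16.9 TPM in Dmrt2 controls and 17.2 to 22.9 TPM (median 19.5) in Hmx3 Hmx2 controls. The 3XKO controls were above all others. 3XKO over Dmrt2 gave a log2 fold change of 0.67 ± 0.08 SE, adjusted p = 3.9e-05, and 3XKO over Hmx3 Hmx2 a log2 fold change of 0.44 ± 0.07 SE, adjusted p = 0.0008. Tmem52b, a membrane protein of the distal nephron, was 222, 204 and 199.9 TPM in 3XKO controls, 147, 120.0 and 143 TPM in Dmrt2 controls, 143, 143 and 157 TPM in Hmx3 Hmx2 controls 4 to 6 and 184, 189 and 196 TPM in Hmx3 Hmx2 controls 1 to 3. 3XKO over Dmrt2 was a log2 fold change of 0.55 ± 0.07 SE, adjusted p = 2.8e-05, and within the Hmx3 Hmx2 line replicates 4 to 6 over 1 to 3 was a log2 fold change of −0.36 ± 0.07 SE, adjusted p = 0.0028. The 2 tables of that line did not overlap. In the thick ascending limb list 2 of 10 were higher and 0 lower in 3XKO than in Dmrt2 controls. The calcium-sensing receptor Casr was at 31.2, 25.5 and 23.9 TPM in 3XKO controls and 15.3, 10.5 and 17.4 TPM in Dmrt2 controls (log2 fold change of 0.84 ± 0.17 SE, adjusted p = 0.0038). Slc12a1 and Umod were called in no comparison.

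In the collecting duct, 2 of 9 principal cell genes were higher and 2 lower in Dmrt2 than in Hmx3 Hmx2 controls (list median 0.10). Of these 4 calls, 2 were kept in every fit without 1 library, and over all genes 15.5% were higher and 16% lower. The water channel Aqp4 of principal cells was 22.9, 25.1 and 23.4 TPM in 3XKO controls, 20.6, 21.7 and 27.5 TPM in Dmrt2 controls and 12.8 to 18.9 TPM (median 15.6) in Hmx3 Hmx2 controls. Both 3XKO and Dmrt2 controls were above all Hmx3 Hmx2 controls (log2 fold change of 0.57 ± 0.09 SE, adjusted p = 0.0014 for 3XKO over Hmx3 Hmx2, and log2 fold change 0.59 ± 0.09 SE, adjusted p = 0.0003 for Dmrt2 over Hmx3 Hmx2). Aqp2 was 647, 836 and 782 TPM in 3XKO controls, 796, 935 and 1373 TPM in Dmrt2 controls and 515 to 843 TPM (median 612) in Hmx3 Hmx2 controls. The Dmrt2 over Hmx3 Hmx2 call for Aqp2 (log2 fold change of 0.74 ± 0.18 SE, adjusted p = 0.015) had overlapping groups, since Hmx3 Hmx2 control 4 was above Dmrt2 control 1, and against replicates 4 to 6 alone the adjusted p was 0.1. Without Dmrt2 control 3 its log2 fold change was 0.49. Aqp3, at 153 to 197 TPM (median 167), was called in no comparison.

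Intercalated cells are the cell type the series was made to study. Of the genes they share, 2 of 12 were higher and 3 lower in Dmrt2 than in Hmx3 Hmx2 controls, and 3 were higher and 2 lower in 3XKO than in Hmx3 Hmx2 controls. The share of all genes called was 31.5% in the first comparison and 17.5% in the second. Foxi1 was 64.9, 62.7 and 62.98 TPM in 3XKO controls, 59.6, 56.8 and 68.3 TPM in Dmrt2 controls and 47.2 to 57.2 TPM (median 49.4) in Hmx3 Hmx2 controls. All 3XKO controls were above all Hmx3 Hmx2 controls, and Dmrt2 control 2 lay just below the highest Hmx3 Hmx2 control. The log2 fold changes were 0.31 ± 0.06 SE for 3XKO over Hmx3 Hmx2 (adjusted p = 0.0029) and 0.32 ± 0.06 SE for Dmrt2 over Hmx3 Hmx2 (adjusted p = 0.00081). Tfcp2l1, which acts with Foxi1 in these cells, was 210.3, 189 and 197 TPM in 3XKO controls and 122, 127 and 135 TPM in Dmrt2 controls, without overlap (log2 fold change of 0.58 ± 0.07 SE, adjusted p = 3.3e-05). The proton pump subunits differed among themselves. Atp6v1c2 was 16.9, 21.2 and 18.6 TPM in Dmrt2 controls and 11.7 to 15.2 TPM (median 14.3) in Hmx3 Hmx2 controls (log2 fold change of 0.49 ± 0.10 SE, adjusted p = 0.0016), Atp6v0a4 was 101, 98.9 and 80.5 TPM in 3XKO controls and 69.7, 56.9 and 72.6 TPM in Dmrt2 controls (log2 fold change of 0.44 ± 0.09 SE, adjusted p = 0.0036), and Atp6v1b1 was called in no comparison, at 70.6 to 87.9 TPM (median 76.3).

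The lists for single intercalated types hold 5 and 7 genes. That is too few to set their share of calls apart from the 31.5% of all genes in Dmrt2 against Hmx3 Hmx2 controls. Of 5 type A genes, 1 was called in Dmrt2 against Hmx3 Hmx2 controls, the anion transporter gene Slc26a7, and that call ended in 4 of 9 fits without 1 library (highest adjusted p = 0.073). Slc4a1 was called in no comparison, at 10.9 to 15.3 TPM (median 13.3). Of 7 genes listed for type B and for non-A non-B cells, 1 was called, the insulin receptor-related receptor Insrr, a sensor of alkaline fluid, at 15.3, 13.4 and 13.7 TPM in Dmrt2 controls and 10.2 to 12.6 TPM (median 11.5) in Hmx3 Hmx2 controls (log2 fold change of 0.36 ± 0.07 SE, adjusted p = 0.0014). Pendrin (Slc26a4) was 5.46, 4.87 and 5.31 TPM in 3XKO controls, 4.42, 3.75 and 7.14 TPM in Dmrt2 controls and 3.28 to 5.21 TPM (median 4.13) in Hmx3 Hmx2 controls. Its groups overlapped, and Dmrt2 control 3 was the highest control. Oxgr1, the receptor for oxoglutarate, was 19.4, 17.1 and 14.02 TPM in 3XKO controls and 10.5, 10.2 and 13.7 TPM in Dmrt2 controls (log2 fold change of 0.50 ± 0.13 SE, adjusted p = 0.0082).

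Of the 3 targeted genes, Dmrt2 and Hmx2 were detected in every control and differed between lines, and Hmx3 was low. Dmrt2 (chromosome 19, 25649775 to 25656355 in mm39, the build of the tables) was 16.5, 18.6 and 18.5 TPM in 3XKO controls, 18.5, 20.5 and 22.3 TPM in Dmrt2 controls, 12.4, 14.1 and 12.3 TPM in Hmx3 Hmx2 controls 4 to 6 and 14.7, 14.5 and 15.7 TPM in Hmx3 Hmx2 controls 1 to 3. The 3XKO and Dmrt2 controls were above all Hmx3 Hmx2 controls. Dmrt2 over Hmx3 Hmx2 controls gave a log2 fold change of 0.60 ± 0.08 SE, adjusted p = 5e-05. 3XKO over Hmx3 Hmx2 gave a log2 fold change of 0.35 ± 0.08 SE, adjusted p = 0.009, but against replicates 1 to 3 alone the adjusted p was 0.15. Hmx2 (chromosome 7, 131150502 to 131159743) was 2.76, 3.698 and 2.67 TPM in 3XKO controls, 3.91, 3.81 and 5.49 TPM in Dmrt2 controls, 1.82, 2.39 and 1.77 TPM in Hmx3 Hmx2 controls 4 to 6 and 2.41, 2.56 and 2.08 TPM in Hmx3 Hmx2 controls 1 to 3. The Dmrt2 controls were above all others (log2 fold change of 1.07 ± 0.17 SE, adjusted p = 0.00015 against Hmx3 Hmx2). Hmx3 (chromosome 7, 131144596 to 131146654) was low, at 0.0458 to 0.956 TPM (median 0.292), and was called in no comparison. Of genes within 5 Mb of the targeted loci, 20 of 72 (27.8%) were called around Dmrt2 and 60 of 162 (37%) around Hmx2 in Dmrt2 against Hmx3 Hmx2 controls, beside 31.5% over all genes.

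**Figure D4:**
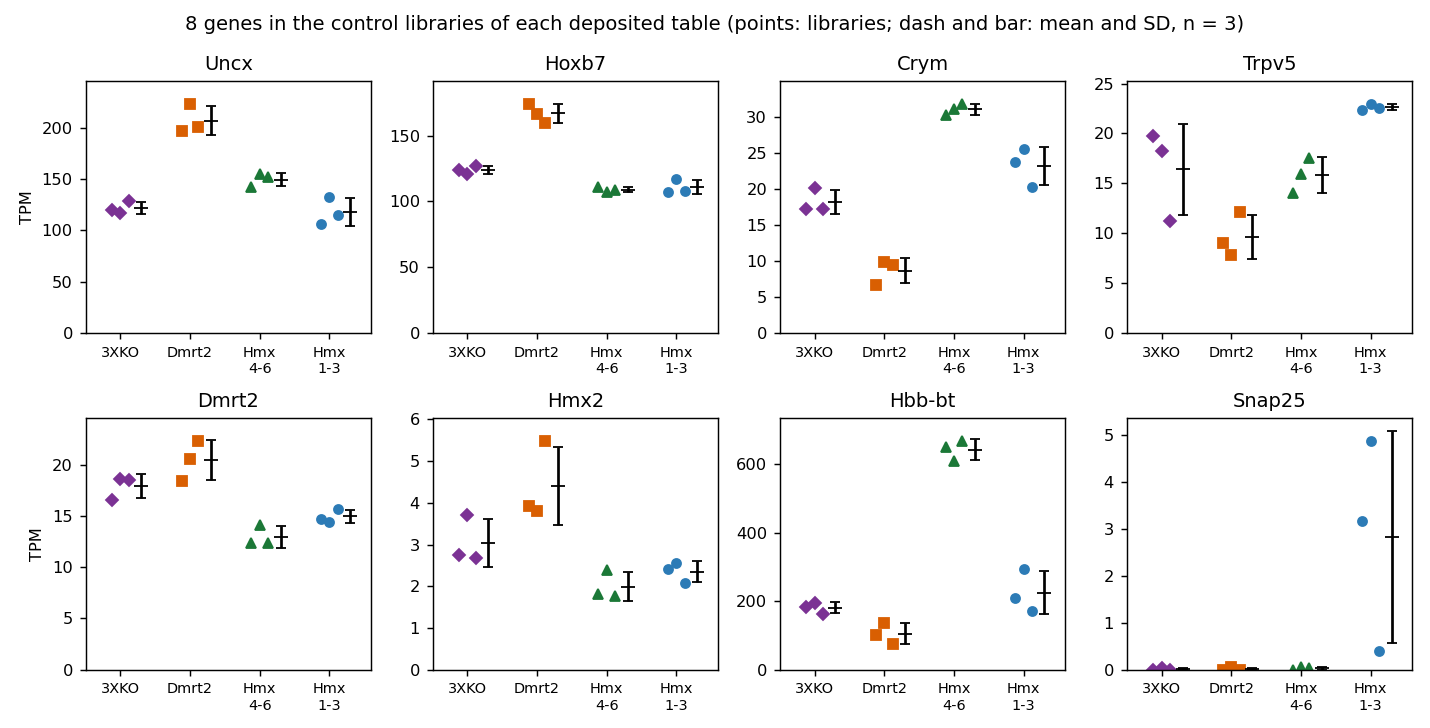
Level in TPM (linear axes from 0) of 8 genes in each control library, by table, with the mean and SD of the 3 libraries as a dash and bar. Uncx and Hoxb7 are highest and Crym lowest in the Dmrt2 controls, Hbb-bt is highest in Hmx3 Hmx2 control replicates 4 to 6, and Snap25 is detected above 1 TPM in replicates 1 and 2 of the Hmx3 Hmx2 controls.

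Interstitial, vascular and immune cell genes follow. Sox17, an arterial endothelial factor, was 32.6, 31.3 and 27.6 TPM in 3XKO controls, 44.1, 44.7 and 42.2 TPM in Dmrt2 controls and 29.1 to 33.8 TPM (median 31.7) in Hmx3 Hmx2 controls, with the Dmrt2 controls above all others (log2 fold change of 0.52 ± 0.05 SE, adjusted p = 3.3e-06). Of 11 endothelial genes, 3 were higher and 2 lower in that comparison, beside 15.5% higher and 16% lower over all genes. Of 8 mural and mesangial genes, 2 were higher and 1 lower in Hmx3 Hmx2 controls 4 to 6 than in 1 to 3 (list median 0.22). The shares over all genes there were 5.89% higher and 6.77% lower. The lower one, the pericyte gene Rgs5, separated the tables of the Hmx3 Hmx2 line, at 146, 143 and 135 TPM in controls 4 to 6 and 204, 179 and 215 TPM in controls 1 to 3 (log2 fold change of −0.49 ± 0.10 SE, adjusted p = 0.007). So did the stromal factor Tcf21 (log2 fold change of 0.31 ± 0.06 SE, adjusted p = 0.003), at 306, 298 and 303 TPM in controls 4 to 6 and 235, 259 and 238 TPM in controls 1 to 3. Adgre1 (F4/80), the surface protein of tissue macrophages, was 6.06, 3.798 and 5.72 TPM in 3XKO controls, 2.45, 1.61 and 3.502 TPM in Dmrt2 controls and 4.302 to 5.76 TPM (median 5.12) in Hmx3 Hmx2 controls. The Dmrt2 controls were below all other controls. Dmrt2 over Hmx3 Hmx2 was a log2 fold change of −0.98 ± 0.21 SE, adjusted p = 0.0024, and of 8 macrophage genes 1 was higher (C1qa) and 3 lower (Adgre1, Csf1r and C1qb). Of these, only Adgre1 was called in every fit without 1 library. The share of all genes called in this comparison was 31.5%. Fgb was 1.63, 1.07 and 1.62 TPM in Dmrt2 controls and 3.33 to 6.49 TPM (median 3.904) in Hmx3 Hmx2 controls (log2 fold change of −1.57 ± 0.20 SE, adjusted p = 2.8e-05).

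Red cell genes were highest in replicates 4 to 6 of the Hmx3 Hmx2 line. Against replicates 1 to 3, 4 of 10 were higher and 0 lower (list median 0.66), beside 5.89% higher and 6.77% lower over all genes. Hbb-bt, an adult beta globin, was 184, 194 and 163 TPM in 3XKO controls, 101, 137 and 75.8 TPM in Dmrt2 controls, 648, 609 and 668 TPM in Hmx3 Hmx2 controls 4 to 6 and 210.3, 293 and 171 TPM in Hmx3 Hmx2 controls 1 to 3. Controls 4 to 6 were above all other controls. Replicates 4 to 6 over 1 to 3 gave a log2 fold change of 1.52 ± 0.24 SE, adjusted p = 0.006. Alas2, the erythroid enzyme of haem synthesis, was 42.6, 42.9 and 43.1 TPM in controls 4 to 6 and 21.9, 28.4 and 19.9 TPM in controls 1 to 3 (log2 fold change of 0.88 ± 0.12 SE, adjusted p = 0.00053). The embryonic globin Hba-x was 0.782, 0.573 and 1.53 TPM in 3XKO controls, 0.619, 1.41 and 0.5303 TPM in Dmrt2 controls and 2.11 to 4.53 TPM (median 3.14) in Hmx3 Hmx2 controls, with 3XKO and Dmrt2 controls below all Hmx3 Hmx2 controls (log2 fold change of −1.74 ± 0.40 SE, adjusted p = 0.007 for 3XKO over Hmx3 Hmx2). Reads of near-identical globin copies may be divided unevenly by the authors' counting, so the levels of single globin genes are uncertain.

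Lists of acute responses and of the clock are given last. Of 10 immediate early and heat shock genes, 2 were higher and 0 lower in Dmrt2 than in Hmx3 Hmx2 controls. The shares over all genes were 15.5% higher and 16% lower, and a list of 10 genes is too short to set apart from them. Junb, an early response transcription factor, was 34.8, 34.8 and 38.2 TPM in Dmrt2 controls and 22.2 to 27.3 TPM (median 25.4) in Hmx3 Hmx2 controls (log2 fold change of 0.56 ± 0.07 SE, adjusted p = 3.1e-05), while Fos, another such factor, was 2.65 to 6.602 TPM (median 4.56) over all controls and was called in no comparison. Of the clock genes, Dbp, an output gene of the clock, was 8.78, 9.83 and 8.901 TPM in 3XKO controls, 12.7, 14.8 and 24.7 TPM in Dmrt2 controls and 7.06 to 9.100 TPM (median 7.61) in Hmx3 Hmx2 controls (log2 fold change of 1.20 ± 0.16 SE, adjusted p = 8e-05), whereas Per1, Per2, Nr1d1 and Arntl were called in no comparison. All 3 Dmrt2 controls were above all others for Dbp. The hypoxia-induced Hk2 was 26.9, 24.2 and 22.2 TPM in 3XKO controls and 11.8, 15.6 and 16.4 TPM in Dmrt2 controls (log2 fold change of 0.69 ± 0.15 SE, adjusted p = 0.007), and 2 of 9 hypoxia genes, Hk2 and Slc2a1, were higher in that comparison, the call of Slc2a1 ending in 4 of 6 fits without 1 library (highest adjusted p = 0.13). Over all genes 14.5% were higher and 13.7% lower there. Zbtb16, a glucocorticoid-induced transcription factor, was 2.58, 3.498 and 4.13 TPM in 3XKO controls and 1.59, 1.26 and 1.07 TPM in Dmrt2 controls (log2 fold change of 1.32 ± 0.19 SE, adjusted p = 0.00013), with no overlap. The imprinted growth suppressor Grb10 was 298, 294 and 333 TPM in 3XKO controls and 222, 239.9 and 243 TPM in Dmrt2 controls (log2 fold change of 0.33 ± 0.06 SE, adjusted p = 0.0005).

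To describe the largest differences, the 8 largest increases and the 8 largest decreases among called genes whose groups did not overlap in CPM, with at least 1 CPM in the higher group, were taken in each comparison. Of these 16, 11 were called in every fit without 1 library in Dmrt2 against Hmx3 Hmx2 controls, 10 in 3XKO against Hmx3 Hmx2, 10 in 3XKO against Dmrt2 and 8 between the tables of the Hmx3 Hmx2 line. Many of these genes carry names of pseudogenes or predicted genes. Gm8341 was 4.85, 4.87 and 3.92 TPM in Dmrt2 controls and listed at 0 in all other controls. Gm45792 was 0.03403, 0.124 and 0.0932 TPM in Dmrt2 controls and 5.83 to 15.03 TPM in 3XKO controls, 6.63 to 7.53 TPM in Hmx3 Hmx2 controls 4 to 6 and 8.55 to 11.2 TPM in Hmx3 Hmx2 controls 1 to 3 (Dmrt2 over Hmx3 Hmx2 log2 fold change of −6.57 ± 0.46 SE, adjusted p = 5.3e-06). H2ac23, a histone gene, was 0.903, 1.19 and 1.49 TPM in 3XKO controls, 4.34, 6.35 and 6.94 TPM in Dmrt2 controls, 9.75, 12.4 and 12.4 TPM in Hmx3 Hmx2 controls 4 to 6 and 7.17, 7.51 and 5.64 TPM in Hmx3 Hmx2 controls 1 to 3, so the 3XKO controls were below all others (3XKO over Hmx3 Hmx2 log2 fold change of −2.89 ± 0.27 SE, adjusted p = 8.2e-06). Between the tables of the Hmx3 Hmx2 line, Gm13328 was 0.637, 0.116 and 0.363 TPM in controls 4 to 6 and 11.7, 13.2 and 10.8 TPM in controls 1 to 3 (log2 fold change of −5.00 ± 0.37 SE, adjusted p = 1.2e-06).

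Gene classes were set side by side for changes called with at least a 2-fold change. Of 1245 tested pseudogenes, 18% were called so in Dmrt2 against Hmx3 Hmx2, 9.32% in 3XKO against Hmx3 Hmx2, 22.9% in 3XKO against Dmrt2 and 4.26% in Hmx3 Hmx2 controls 4 to 6 against 1 to 3. Of 15760 protein-coding genes, 1.29% were in Dmrt2 against Hmx3 Hmx2, 0.609% in 3XKO against Hmx3 Hmx2, 1.29% in 3XKO against Dmrt2 and 0.838% in Hmx3 Hmx2 controls 4 to 6 against 1 to 3. The share called at any fold was 28% of pseudogenes and 36.3% of protein-coding genes in the first comparison.

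Some genes were high in part of the control libraries and near 0 in the rest. Of 11264 genes of at least 500 exonic bases that reached at least 10 TPM in a control, 59 had a lowest level at most 1/20 of the highest. By name, 24 are pseudogenes, 21 protein-coding genes, 3 other RNAs, and 11 did not match the annotation used for classes. For 51 of the 59, high and low libraries occurred within 1 table, and 8 were high in all or none of the libraries of each table. The genes of this and the next paragraph, apart from Tpm3-rs7, Eno1b and Hmga1b, were chosen after their values were seen. Several followed the same libraries. Gm8730 and Gm9625 were high in 3XKO controls 1 and 2, Dmrt2 controls 2 and 3, and Hmx3 Hmx2 controls 1, 3, 4 and 6. Gm8730, for example, was 619, 677 and 3.29 TPM in 3XKO controls, 12.9, 565 and 596 TPM in Dmrt2 controls, 842, 17.4 and 897 TPM in Hmx3 Hmx2 controls 4 to 6 and 799, 9.51 and 821 TPM in Hmx3 Hmx2 controls 1 to 3. Gm13394 reached 559 TPM in Hmx3 Hmx2 control 3 and at most 0.6796 TPM in the other 11 controls.

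Several of these genes are copies named after a parent gene. Hmga1b, a copy of the chromatin protein gene Hmga1, was 1.27, 1.98 and 1.55 TPM in 3XKO controls, 93.9, 114 and 3.92 TPM in Dmrt2 controls, 2.200, 2.54 and 2.58 TPM in Hmx3 Hmx2 controls 4 to 6 and 2.51, 86.00 and 83.8 TPM in Hmx3 Hmx2 controls 1 to 3. Hmga1 itself was 260.5, 277 and 307 TPM in 3XKO controls, 234, 269 and 313 TPM in Dmrt2 controls, 216, 227 and 242 TPM in Hmx3 Hmx2 controls 4 to 6 and 259, 193 and 179.8 TPM in Hmx3 Hmx2 controls 1 to 3, lower in the libraries where the copy was high than in the other libraries of the same table. Rnps1-ps, a copy of the splicing factor gene Rnps1, was high in the same 4 libraries as Hmga1b. Eno1b, a copy of the glycolytic enolase gene Eno1, was 1.72, 0.895 and 1.31 TPM in 3XKO controls, 283, 194 and 214 TPM in Dmrt2 controls, 2.67, 3.65 and 1.74 TPM in Hmx3 Hmx2 controls 4 to 6 and 255, 1.27 and 278 TPM in Hmx3 Hmx2 controls 1 to 3. Rpsa-ps10, a copy of the ribosomal protein gene Rpsa, ran from 10.7 to 2036 TPM while Rpsa ran from 1486 to 1900.1 TPM. Tpm3-rs7, named after the tropomyosin gene Tpm3, was 156 to 169 TPM in Dmrt2 controls and at most 3.22 TPM elsewhere, beside Tpm3 at 155 to 161 TPM in Dmrt2 controls, 196 to 219 TPM in 3XKO controls, 172 to 180.3 TPM in Hmx3 Hmx2 controls 4 to 6 and 182 to 190.5 TPM in Hmx3 Hmx2 controls 1 to 3. Reads of a gene and a near-identical copy cannot always be told apart, and reads with several positions were not counted, so these levels are uncertain.

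**Figure D5:**
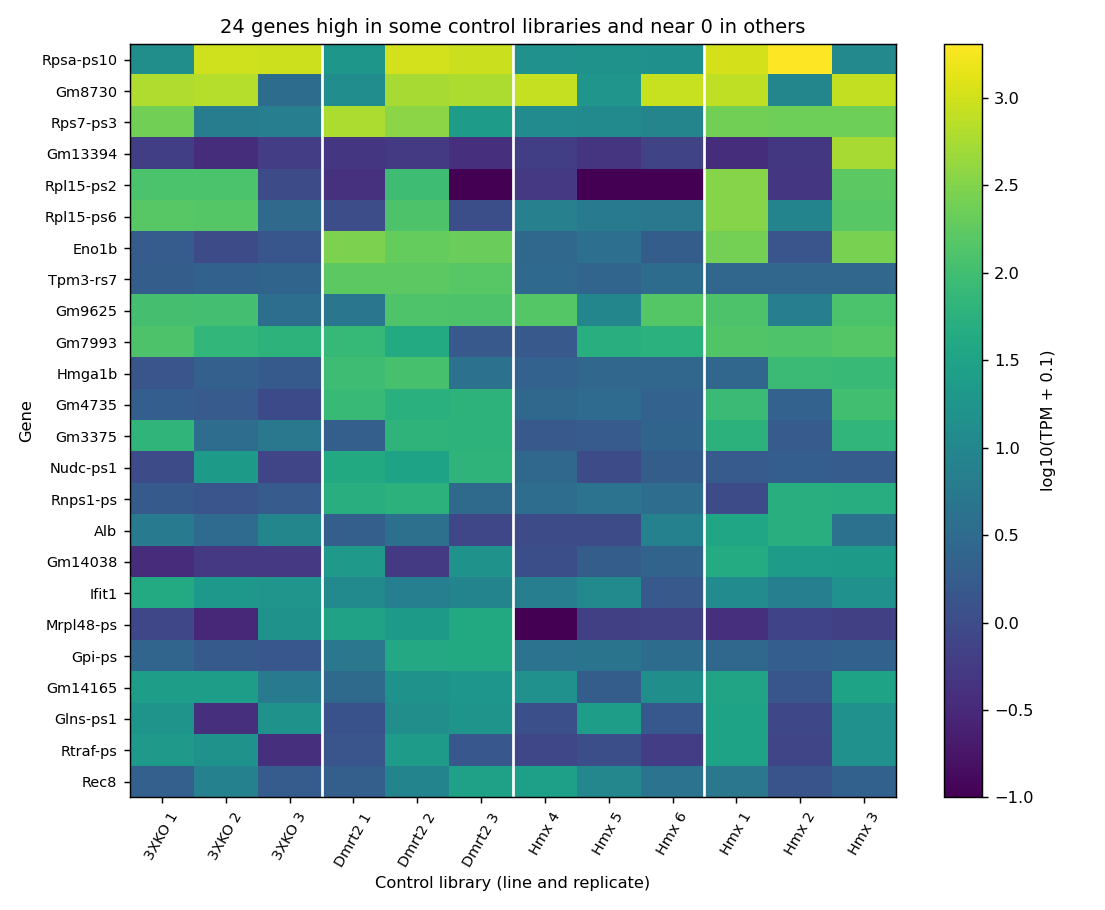
Log10(TPM + 0.1) as colour in the 12 control libraries (columns, with white lines between the 4 tables) for the 24 genes with the highest peak level among those with an on and off pattern, without Xist and Y-linked genes. The bright cells change within tables for most rows, as in Gm8730 and Hmga1b, and fill exactly the 3 Dmrt2 columns for Tpm3-rs7.

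A further group of genes was high in the table with replicates 1 to 3 of the Hmx3 Hmx2 line and includes genes of neurons. Snap25, a protein of synaptic vesicle fusion, was at most 0.0521 TPM in 3XKO and Dmrt2 controls, 0, 0.0521 and 0.0364 TPM in Hmx3 Hmx2 controls 4 to 6 and 3.17, 4.89 and 0.407 TPM in Hmx3 Hmx2 controls 1 to 3. Eef1a2, the elongation factor of neurons and muscle, was 6.95, 10.8 and 0.774 TPM in Hmx3 Hmx2 controls 1 to 3. For both genes controls 1 and 2 were above control 3. Alb was highest in the same controls. Snap25 and Eef1a2 were called lower in replicates 4 to 6 than in 1 to 3, and both calls ended without Hmx3 Hmx2 control 4, 5 or 6 (highest adjusted p = 0.064 and 0.079). The knockout libraries of these tables differed too. Snap25 was 0.0386, 0.0205 and 0.0413 TPM in knockouts 4 to 6 and 2.300, 4.100 and 4.05 TPM in knockouts 1 to 3 (log2 fold change of −6.62, adjusted p = 0.0003). Eef1a2 was 0.126, 0.2001 and 0.404 TPM in knockouts 4 to 6 and 6.18, 10.7 and 9.51 TPM in knockouts 1 to 3 (log2 fold change of −5.13, adjusted p = 8e-06). Alb was 0.392, 1.603 and 2.45 TPM in knockouts 4 to 6 and 31.4, 45.5 and 37.6 TPM in knockouts 1 to 3 (log2 fold change of −4.66, adjusted p = 0.0031). Of the 6 libraries in the table with replicates 1 to 3, Hmx3 Hmx2 control 3 was thus the lowest for all 3 genes. For comparison, Six2 was 139, 149 and 165 TPM and Slc34a1 947, 1005 and 1000.2 TPM in Hmx3 Hmx2 controls 1 to 3. Whether kidney markers as a set followed the same libraries was not tested.

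The knockout libraries of the same tables, which the fit of the controls did not use, were compared in the same way. These comparisons carry the difference in genotype as well as the line and the table. Of 20892 genes they called 6275 (30%) in Dmrt2 against Hmx3 Hmx2, 4384 (21%) in 3XKO against Hmx3 Hmx2, 5309 (25.4%) in 3XKO against Dmrt2 and 3328 (15.9%) in Hmx3 Hmx2 knockouts 4 to 6 against 1 to 3. Over 20402 genes tested in both, 4427 genes were called in Dmrt2 against Hmx3 Hmx2 among controls and among knockouts, which is 67.2% of the control calls and 70.8% of the knockout calls, against 30.7% of all these genes called among knockouts, and 4418 had the same direction. In 3XKO against Hmx3 Hmx2 the shared genes were 1806 (49.4% and 42.6%), 1785 in the same direction. In 3XKO against Dmrt2 they were 3255 (55.2% and 63.1%), 3234 in the same direction. Between Hmx3 Hmx2 replicates 4 to 6 and 1 to 3, where the knockouts carry the same genotype label in both tables, they were 1785 (67% and 54.4%), all in the same direction. Of the list members called among controls, 58 of 90 in Dmrt2 against Hmx3 Hmx2, 14 of 33 in 3XKO against Hmx3 Hmx2, 37 of 72 in 3XKO against Dmrt2 and 26 of 34 in Hmx3 Hmx2 4 to 6 against 1 to 3 were also called among knockouts in the same direction. Of the genes called among controls with at least a 2-fold change and tested among knockouts, those called in the same direction there numbered 316 of 598 in Dmrt2 against Hmx3 Hmx2, 222 of 365 in 3XKO against Hmx3 Hmx2, 396 of 731 in 3XKO against Dmrt2 and 145 of 219 in Hmx3 Hmx2 4 to 6 against 1 to 3.

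Several genes described above had a difference of the same sign among knockouts, although Osr1 and Adgre1 were not called there. Among knockouts, Dmrt2 over Hmx3 Hmx2 gave log2 fold changes of 0.63 for Uncx (adjusted p = 1.2e-06), 0.43 for Osr1 (adjusted p = 0.1), 0.65 for Hoxb7 (adjusted p = 7.7e-09) and −1.23 for Crym (adjusted p = 0.00013), beside 0.69, 1.03, 0.65 and −1.59 among controls. For Trpv5 it was −1.34 (adjusted p = 8.7e-05) among knockouts and −0.93 among controls, and for Adgre1 −0.32 (adjusted p = 0.2) and −0.98. Hbb-bt differed by 1.26 (adjusted p = 0.0054) between knockout replicates 4 to 6 and 1 to 3 of the Hmx3 Hmx2 line, and by 1.52 among controls.

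Of the genes with the largest differences described above, some differed among knockouts and some did not. Gm13328 was 0.129, 0.136 and 0.5497 TPM in Hmx3 Hmx2 knockouts 4 to 6 and 10.6, 11.2 and 11.99 TPM in knockouts 1 to 3 (log2 fold change of −5.32, adjusted p = 1.3e-06), and H2ac23 had a log2 fold change of −2.27, adjusted p = 8.8e-05 in 3XKO over Hmx3 Hmx2 knockouts. Tpm3-rs7, high in all 3 Dmrt2 controls, was 3.27, 3.69 and 3.74 TPM in Dmrt2 knockouts, and Dmrt2 over Hmx3 Hmx2 knockouts gave a log2 fold change of 0.10, adjusted p = 0.95. In 3XKO knockouts Tpm3-rs7 was 122, 2.503 and 113 TPM, so it was high in a pair of them. Gm8341 followed the same libraries, at 7.403, 0 and 5.74 TPM in 3XKO knockouts and listed at 0 in all Dmrt2 knockouts. Gm45792 was 0.0614, 4.79 and 3.62 TPM in Dmrt2 knockouts and 6.65 to 12.6 TPM in Hmx3 Hmx2 knockouts (log2 fold change of −1.64, adjusted p = 0.14).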

How the data were processed

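PolyA RNA of whole kidneys from embryonic day 18.5 was sequenced with reads of 150 bp, and 24 libraries in 4 tables were read, of which the 12 controls are described and the 12 knockouts serve as a second set. The deposited values are counts per gene made by the authors. The submitters' processing notes list fastp 0.20.1, STAR 2.7.0e, featureCounts 2.0.1 and the build mm39, whereas the header of each file gives version 2.0.3 of featureCounts. Exons of a filtered GENCODE vM29 annotation were summed by gene name without strand, per the file headers, and neither reads with several positions nor reads that overlap several genes were assigned. The headers call for paired input without counting pairs, so a count is a read, and 88.7 to 94.1% of counts from 1 to 19 were even. The tables hold 54393 genes and no row without a gene name. Another 2 columns, which match no sample, were not used. For 15 genes the exons lie on several chromosomes.

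TPM were computed from the counts and the deposited lengths, in which each exonic base counts once. The test was edgeR's quasi-likelihood test (version 4.0.16, R 4.3.3) with robust fitting and TMM, after filterByExpr by table at a minimum count of 10 and a total of 15. Calls have a Benjamini-Hochberg adjusted p under 0.05, from a fit with 1 coefficient per table and the Hmx3 Hmx2 line as the mean of its tables. Each SE was taken as the size of the log2 fold change over the root of its F value. The fit was tested on simulated counts. Alternatives were DESeq2 1.42.0, other scalings, filters and sets of libraries, and fits without 1 library each. Tables were joined in Python 3.11.15 with pandas 2.3.3. Gene classes came from GENCODE vM21 by name for 20347 of 21035 tested genes. Between libraries of a table, chi-square per degree of freedom was 5.61 to 29.7 over 12 pairs.

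The control libraries, the 40 gene lists with 284 members and the comparisons were chosen with earlier results of these data known, and the strain list was taken from those results. Named were list members, beginning in each segment with the highest mean TPM, the 8 largest called increases and decreases per comparison whose groups did not overlap in CPM with at least 1 CPM in the higher group, the 20 genes with the highest mean TPM, and the 5 steadiest and 5 most variable list members of at least 5 TPM. Of each comparison's 16 largest changes the text describes a few. Some genes that these rules name are not reported here.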

Additional observations from a re-analysis of the deposited data

Results flagged for a closer look

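In the 6 Hmx3 Hmx2 controls, the gap between the highest or lowest library and its nearest neighbour, as a share of the group's range, exceeded Dixon's critical value of 0.625 for 10 of 174 named genes. Chance alone flags about 1 in 20 groups of libraries drawn alike. Gm13394 was chosen after its values were seen and Ifi202b was named for its spread, so that rate does not apply to them. The 6 controls also come from 2 tables that differed, so for the other genes the rate is only a guide. The highest library stood apart for 8 genes. Adipoq in Hmx3 Hmx2 control 2 was 0.287 TPM and the other 5 controls of the line 0 to 0.0834 TPM (gap over range 0.709). C1qb in Hmx3 Hmx2 control 5 was 59.6 TPM and the other 5 controls of the line 46.02 to 49.97 TPM (gap over range 0.708). Ckm in Hmx3 Hmx2 control 1 was 0.839 TPM and the other 5 controls of the line 0.106 to 0.284 TPM (gap over range 0.758). Cyp11b1 in Hmx3 Hmx2 control 4 was 0.123 TPM and the other 5 controls of the line 0 to 0.02503 TPM (gap over range 0.797). Etv5 in Hmx3 Hmx2 control 3 was 83.2 TPM and the other 5 controls of the line 67.97 to 73.6 TPM (gap over range 0.6300). Gm13394 in Hmx3 Hmx2 control 3 was 559 TPM and the other 5 controls of the line 0.272 to 0.6796 TPM (gap over range 0.999). Ifi202b in Hmx3 Hmx2 control 1 was 8.91 TPM and the other 5 controls of the line 0 to 3.22 TPM (gap over range 0.638). Pvalb in Hmx3 Hmx2 control 2 was 1.14 TPM and the other 5 controls of the line 0 to 0.348 TPM (gap over range 0.695). The lowest library stood apart for 2 genes. Slc12a3 in Hmx3 Hmx2 control 5 was 57.2 TPM and the other 5 controls of the line 68.01 to 74.4 TPM (gap over range 0.628). Wnt5a in Hmx3 Hmx2 control 1 was 37.04 TPM and the other 5 controls of the line 40.7 to 42.9 TPM (gap over range 0.627).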

How the results depend on the processing

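The number of genes differing between 3XKO and Hmx3 Hmx2 controls was 3671 with 1 coefficient per table, 1827 with the tables of the Hmx3 Hmx2 line not separated, 1100 against Hmx3 Hmx2 controls 1 to 3 alone and 5153 against controls 4 to 6 alone. The share of its calls that were higher was 53.6% with the filter on low counts and 66.8% without it. Adding a fold change of at least 2 to the call, a setting chosen after seeing the data, left 641 genes in Dmrt2 against Hmx3 Hmx2, 382 in 3XKO against Hmx3 Hmx2, 773 in 3XKO against Dmrt2 and 221 in Hmx3 Hmx2 controls 4 to 6 against 1 to 3. Without 1 library each, the counts ran 5184 to 6348 in Dmrt2 against Hmx3 Hmx2, 2267 to 4033 in 3XKO against Hmx3 Hmx2, 4316 to 5609 in 3XKO against Dmrt2, 1350 to 2293 in Hmx3 Hmx2 controls 4 to 6 against 1 to 3, 8201 to 9601 for any difference among the tables, and 264 to 265 for list members with a mean of at least 1 TPM. The cause was not tested.

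Replicate numbers did not pair the samples: same-numbered libraries of different tables deviated with r of −0.0584 to 0.0295. With the replicate number as a block and Hmx3 Hmx2 controls 4 to 6 left out, 5234 genes were called in Dmrt2 against Hmx3 Hmx2, 853 in 3XKO against Hmx3 Hmx2, 5463 in 3XKO against Dmrt2 and 6396 anywhere. Among genes named in the text as called, that fit ended the calls of Kap, Ptpro, Wt1, C1qa, Csf1r and C1qb in Dmrt2 against Hmx3 Hmx2, of Dmrt2, Hba-x and Klhl3 in 3XKO against Hmx3 Hmx2 and of Hk2 and Slc2a1 in 3XKO against Dmrt2. It also lacks controls 4 to 6, so these losses cannot be credited to the block. Without a block, 1100 genes were called in 3XKO against Hmx3 Hmx2 controls 1 to 3 alone.

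Of the values recomputed under an alternative, 106 of 119 counts stayed within 1.5 times, and 1360 of 1445 values of genes named as called kept direction and call, the other 85 keeping direction only. Besides those of the fit with the block, these were Kap, Dmrt2 and Aqp2 against 1 table of the Hmx3 Hmx2 line, and Gfra1, Kap, Eef1a2 and Snap25 without 1 library, and Wt1, Podxl, C1qa, Csf1r, C1qb, Slc26a7 and Slc2a1 under several settings, 1 library left out among them. DESeq2 called 7112 genes in Dmrt2 against Hmx3 Hmx2, 4462 in 3XKO against Hmx3 Hmx2, 6556 in 3XKO against Dmrt2 and 3573 in Hmx3 Hmx2 controls 4 to 6 against 1 to 3. At these depths 3 reads correspond to 0.0272 to 0.0539 CPM, and the limit for a zero count is higher because most reads were counted in pairs. Groups of 3 libraries limit what a test can show.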

Other observations

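Stromal and vascular genes not described above also separated the 2 tables of the Hmx3 Hmx2 line. Col1a1 was 1435, 1322 and 1214 TPM in controls 4 to 6 and 875, 914 and 1052 TPM in controls 1 to 3 (log2 fold change of 0.49 ± 0.08 SE, adjusted p = 0.0015), without overlap. Plvap, the diaphragm protein of fenestrated endothelium, was 513, 478 and 498 TPM in controls 4 to 6 and 382, 428 and 360.4 TPM in controls 1 to 3 (log2 fold change of 0.35 ± 0.06 SE, adjusted p = 0.0017). In the other direction, Itga8, an integrin chain of nephron progenitors and mesangium, was 55.1, 55.4 and 48.5 TPM in controls 4 to 6 and 64.7, 62.5 and 77.4 TPM in controls 1 to 3 (log2 fold change of −0.36 ± 0.08 SE, adjusted p = 0.01). Plk1, a mitotic kinase, was 131, 126 and 164 TPM in controls 4 to 6 and 81.9, 105 and 96.5 TPM in controls 1 to 3 (log2 fold change of 0.57 ± 0.11 SE, adjusted p = 0.0069), and Hsd11b2, the principal cell enzyme that inactivates glucocorticoid, was 172, 182 and 179.6 TPM in controls 4 to 6 and 141, 149 and 145 TPM in controls 1 to 3 (log2 fold change of 0.30 ± 0.05 SE, adjusted p = 0.0013). All of these calls were kept in every fit without 1 library. Dcn, decorin, a stromal matrix protein, was 92.2, 61.9 and 72.97 TPM in Dmrt2 controls and 45.8 to 59.9 TPM (median 54.5) in Hmx3 Hmx2 controls (log2 fold change of 0.54 ± 0.11 SE, adjusted p = 0.0044).

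Of the imprinted growth genes, H19 was at 3373 to 4075 TPM (median 3679.6), and was called in no comparison. Peg3 was at 108 to 153 TPM (median 131), Plagl1 at 67.2 to 134 TPM (median 101), Dlk1 at 27.8 to 53.7 TPM (median 35.1) and Meg3 at 20.2 to 32.9 TPM (median 24.6). Of the nerve genes listed as markers, Sox10, a transcription factor of Schwann cells, was at 1.07 to 2.79 TPM (median 1.702) and was called in no comparison.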
